A study of Bos taurus with 46 samples.

Results

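The T cell receptor complex and its signalling genes were followed in the circulating leukocytes of pregnant heifers as 35 genes chosen by name. They comprise the CD3 chains, coreceptors and costimulatory proteins, proximal kinases, adaptors and regulators, T cell transcription factors, and cytokine and chemokine receptors that T cells use. All 35 symbols were present among the 30675 NCBI genes counted, of which 25404 had a read. In every comparison 34 of the 35 passed the filter on low counts, and the exception was *MAL*, a T cell membrane lipid-raft protein, which reached at most 0.164 normalised counts (CPM, scaled to library size) and at most 4 reads in any library.

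RNA was sequenced from the white cells of 23 Angus crossbred heifers on gestation day 55 (D55) and again on day 105 (D105), giving 46 libraries. The heifers carried a fetus conceived by artificial insemination (AI, n = 8) or had received in vitro produced (IVP) blastocysts, transferred as a pair, and then carried fetuses that were not overgrown (IVP-Normal, n = 6) or that had large offspring syndrome, a fetal overgrowth condition (IVP-LOS, n = 9; groups AI, ARTnormal and ARTLOS of the labels). All heifers had been synchronized for estrus, the IVP embryos came from oocytes of Angus-type cattle and the semen of a single Brahman bull, and an IVP heifer could carry 1 or 2 fetuses. The IVP groups were defined by fetal weight on D105, so on D55 they are named for a later outcome.

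The T cell receptor recognizes a peptide held by an MHC molecule but has no signalling tail of its own. The CD3 chains and the zeta chain CD247 carry the phosphorylation motifs, which the kinase LCK, brought in by CD4 or CD8, phosphorylates so that ZAP70 binds. ZAP70 then phosphorylates the adaptors LAT and LCP2 (SLP-76), which assemble the branches that open calcium, protein kinase C theta and RAS signalling, while CD28 and ICOS add the costimulatory signal. Before they meet antigen, T cells carry CCR7 and IL7R and the transcription factors TCF7 and LEF1, and IL2RB, a chain shared by the interleukin-2 and interleukin-15 receptors, is prominent on effector cells and natural killer (NK) cells. No mature receptor chain constant-region gene (*TRAC*, *TRBC1*, *TRDC* or *TRGC*) was analysed here, and no sequence of the members is shown.

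Between 18692653 and 24502012 reads per library fell on genes, and every member but *MAL* and *CD40LG* had at least 261 reads in each. In the labels, 17 libraries, those of AI and IVP-LOS heifers on D105, carry the set name BACKUP and the other 29 the set name New; day and set therefore cannot be told apart in those groups, whereas all IVP-Normal libraries are of the set New. Defining T cell genes were plentiful in every library: *CD3E* ranged from 216 to 769 CPM and *CD3D* from 77.7 to 255 CPM, and the pan-leukocyte genes *PTPRC* and *CORO1A* summed to 2834 to 3624 CPM on D105. On D105 the libraries of heifers 604 and 664, which carried the heaviest IVP-LOS fetuses, had 32.4% and 30.4% of their reads on no gene, against 20.2% to 25.9% in the other 21. Counts were compared with edgeR's quasi-likelihood F-test, and a gene was called at a Benjamini-Hochberg false discovery rate (FDR) of 0.05 or less over all genes tested. In whole leukocytes, fewer T cells and less RNA per T cell cannot be told apart.

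The first question was whether T cell receptor genes changed between D55 and D105 in the same heifer. With all 23 heifers in a paired fit, an analysis added after the values had been seen, 9 members rose and 2 fell of 34 tested. Of all genes tested in that fit, 14.6% rose and 17.1% fell. The genes that rose were *LEF1*, *CCR7*, *IL7R*, *CD28*, *ICOS*, *BCL11B*, *TXK*, *CD4* and *LCP2*, and the genes that fell were *IL2RB* and *CD8B*. The median log2 fold change was 0.06 over the members and -0.02 over all genes. Without heifers 604 and 664, 11 rose and 1 fell, since *TCF7* and *RASGRP1* were then also called and *CD8B* was not. Over all genes, 2528 of 16418 rose and 2970 fell in that fit. Without the pairing 7 rose and 1 fell, and *CD4*, *TXK* and *CD8B* were not called. The unpaired fit called 1968 of 16487 genes higher and 1440 lower. In the IVP-Normal heifers, which are part of the paired fit and whose libraries are all of the set New, the 9 risen members had estimates of 0.15 (*CD4*) to 0.68 (*LEF1*) and the 2 fallen ones -0.14 (*CD8B*) and -0.53 (*IL2RB*).

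**Figure D1:**
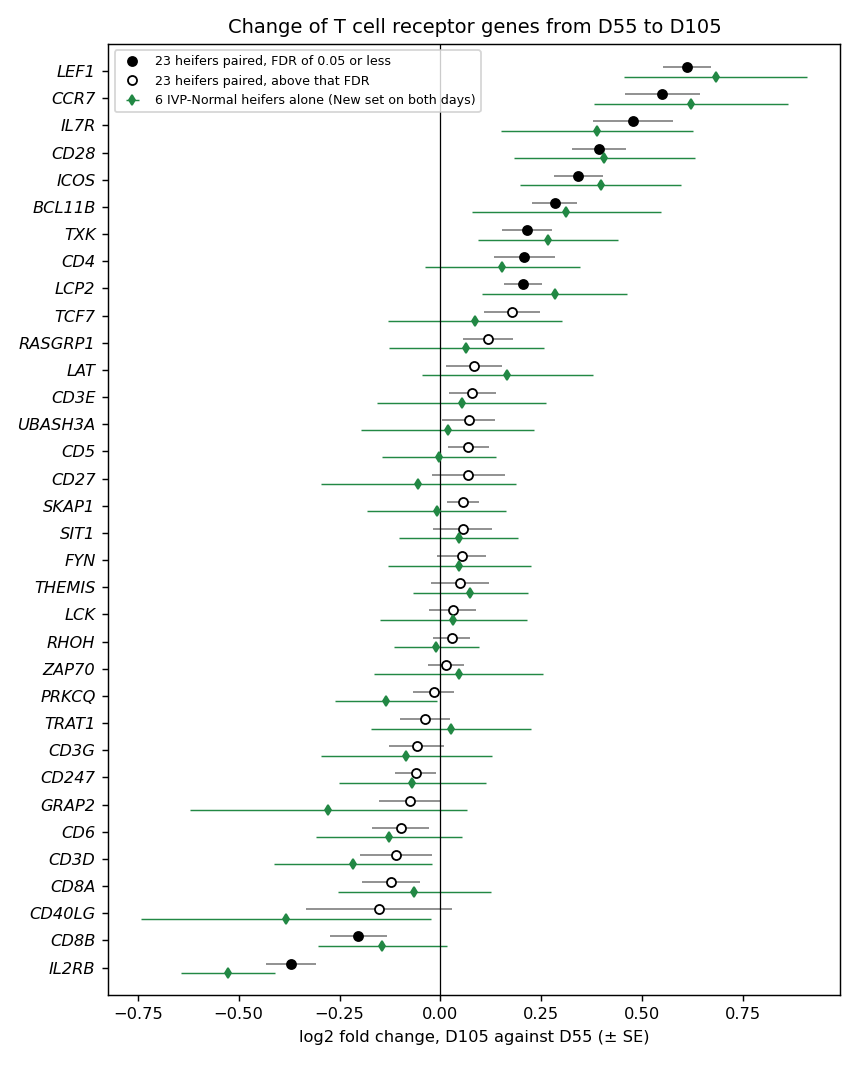
Log2 fold change (± SE) of D105 against D55 for the 34 members tested, in the paired fit of 23 heifers (circles, filled at an FDR of 0.05 or less) and in the 6 IVP-Normal heifers alone (diamonds). *LEF1* is at the top with 0.61 and 0.68 in these fits, and *IL2RB* is at the bottom with -0.37 and -0.53.

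None of the 4 CD3 chains was called between the days. *CD3E*, the chain that anchors the CD3 heterodimers, had a log2 fold change of 0.08 ± 0.06 (SE) and was higher on D105 in 12 of 23 heifers. *CD3D* had -0.11 ± 0.09, *CD3G* -0.06 ± 0.07 and the zeta chain gene *CD247* -0.06 ± 0.05. *CD3E*, *CD3D* and *CD3G* are adjacent genes in the RefSeq annotation, and *CD3D* was lower on D105 in 16 heifers while *CD3E* was lower in 11. By edgeR's quasi-likelihood test the FDR of these chains ran from 0.319 to 0.543. In the AI group *CD3E* ranged from 392 to 704 CPM (median 486) on D55 and from 363 to 638 CPM (median 489.8) on D105, and in the IVP-Normal group from 216 to 608 CPM (median 407) and 289 to 488 CPM (median 434). The IVP-LOS values of *CD3E* were 331 to 574 CPM (median 451) and 320.4 to 769 CPM (median 549.9). The days overlapped in every group, with the widest spread among IVP-LOS heifers on D105.

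*CD3D* ranged from 116.5 to 239.9 CPM (median 139.9) on D55 and 114.8 to 191 CPM (median 162) on D105 in AI heifers. In IVP-Normal heifers it ranged from 84.3 to 197 CPM (median 131) and 81.9 to 144 CPM (median 120.2), and in IVP-LOS heifers from 123.8 to 219 CPM (median 150.3) and 77.7 to 255 CPM (median 138). The IVP-Normal heifers were the lowest on D105 by their median, with the ranges overlapping. *CD3G* had D55 and D105 medians of 92.8 and 99.8 CPM in AI, 81.7 and 78.8 in IVP-Normal and 101.2 and 94.7 in IVP-LOS. The corresponding medians of *CD247* were 226 and 234, 221 and 226, and 273 and 229 CPM. The medians of neither gene moved the same way in all 3 groups.

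Among the transcription factors, *LEF1* was higher on D105 in 23 of 23 heifers. It ranged from 219 to 313 CPM (median 255) on D55 and from 257 to 506 CPM (median 373) on D105 in the AI group. In the IVP-Normal group the values were 106.8 to 275 CPM (median 197) and 198 to 420.2 CPM (median 334), and in the IVP-LOS group 140.0 to 338 CPM (median 255) and 229.8 to 604 CPM (median 347). Every heifer moved upward, although the ranges of the days overlapped in each group. The paired log2 fold change was 0.61 ± 0.06 (SE, 1.53-fold; edgeR quasi-likelihood FDR = 2.28e-08), and the unpaired fits gave 0.54 in AI (FDR = 0.00619), 0.68 in IVP-Normal (FDR = 0.174) and 0.64 in IVP-LOS (FDR = 0.135). *BCL11B*, a factor that fixes the T cell fate, rose by 0.28 ± 0.06 in the paired fit and was higher in 18 heifers. *TCF7*, the partner of LEF1 in the same factor family, was higher in 16 heifers, with a log2 fold change of 0.18 ± 0.07 that missed the threshold (edgeR quasi-likelihood FDR = 0.0529).

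The receptors split. *CCR7*, the chemokine receptor for entry into lymph nodes, ranged from 64.1 to 123.8 CPM (median 81.2) on D55 and 96.3 to 184 CPM (median 128.2) on D105 in AI heifers. Its values were 63.6 to 115.2 CPM (median 97.8) and 85.7 to 253 CPM (median 134) in IVP-Normal heifers and 76.5 to 156 CPM (median 89.5) and 94.1 to 205 CPM (median 139) in IVP-LOS heifers. *CCR7* was higher on D105 in 19 heifers and rose by 0.55 ± 0.09 in the paired fit (edgeR quasi-likelihood FDR = 6.24e-05). *IL7R*, the interleukin-7 receptor alpha chain that keeps resting T cells alive, was higher in 20 heifers and rose by 0.48 ± 0.10. Its paired FDR by the same test was 5.39e-04, and it varied most among heifers of any member but *GRAP2* on D55.

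*IL2RB* went the other way and was lower on D105 in 21 of 23 heifers. The 6 IVP-Normal heifers ranged from 222 to 295 CPM (median 243) on D55 and from 142 to 207 CPM (median 169.7) on D105. These ranges did not overlap, and every IVP-Normal heifer fell. The AI heifers ranged from 157 to 293 CPM (median 250.2) and 173 to 249 CPM (median 202), and the IVP-LOS heifers from 194 to 355 CPM (median 284) and 142 to 294 CPM (median 222). There the days overlapped, with 1 heifer of each group higher on D105. *IL2RB* fell by 0.37 ± 0.06 (log2) in the paired fit (edgeR quasi-likelihood FDR = 5.07e-05) and fell by 0.53 ± 0.12 in IVP-Normal heifers alone (FDR = 0.0262). The NK and cytotoxic genes moved beside it in the paired fit: *NCR1* (-0.36), *NKG7* (-0.29) and *PRF1* (-0.22) fell and *GZMB* rose (log2 fold change 1.80 ± 0.31), and their part in the change of *IL2RB* was not tested.

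**Figure D2:**
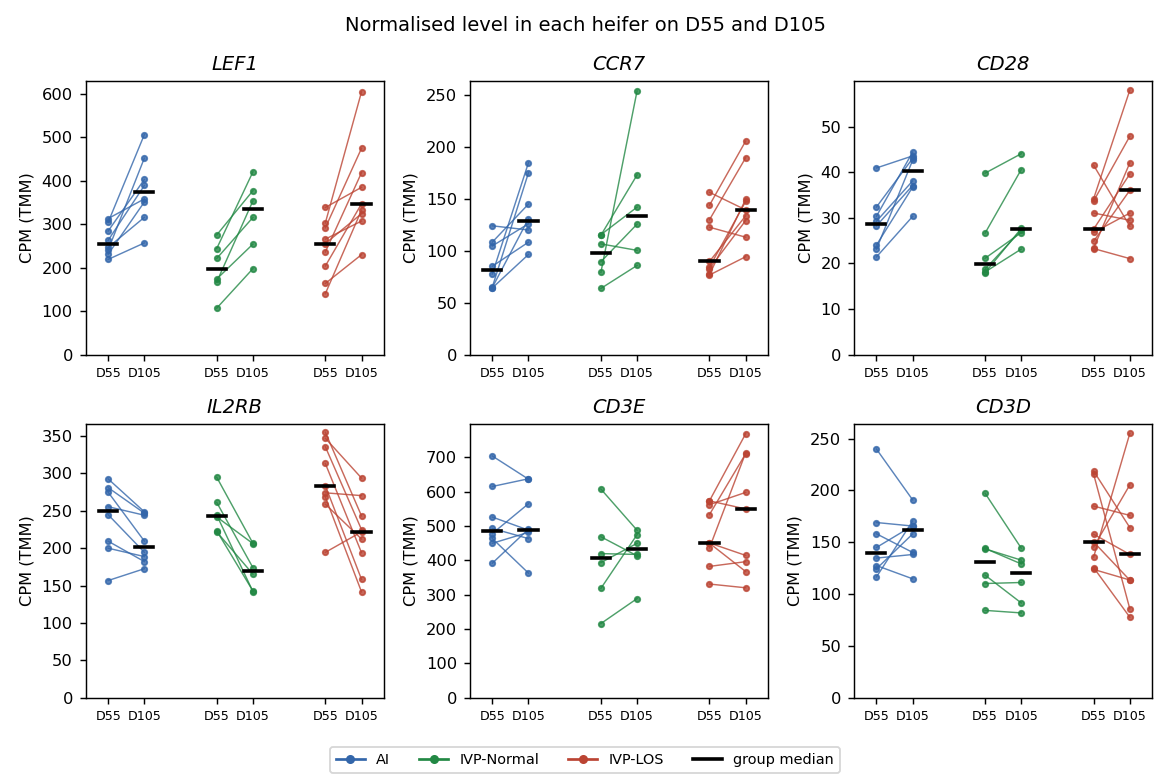
TMM-normalised CPM of *LEF1*, *CCR7*, *CD28*, *IL2RB*, *CD3E* and *CD3D* on D55 and D105, with 1 line per heifer, colours for the groups and black bars at group medians. All 23 lines rise for *LEF1* and 21 of 23 fall for *IL2RB*, while the *CD3E* and *CD3D* lines cross.

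Of the costimulatory receptors, *CD28* and *ICOS* rose. *CD28* ranged from 21.4 to 40.9 CPM (median 28.7) on D55 and 30.3 to 44.4 CPM (median 40.3) on D105 in AI heifers, and was higher on D105 in 20 of 23. *ICOS*, its inducible relative, was higher in 21 of 23, with medians of 26.2 and 35.2 CPM in AI, 18.6 and 25.9 in IVP-Normal and 23.2 and 29.1 in IVP-LOS. Their paired log2 fold changes were 0.39 ± 0.07 and 0.34 ± 0.06 (edgeR quasi-likelihood FDR = 6.98e-05 and 1.15e-04). The related *CD27*, a costimulatory receptor of the tumour necrosis factor family, had 0.07 ± 0.09 and was not called. *CD40LG*, the ligand by which helper T cells signal to B cells, was scarce at 0.619 to 4.37 CPM and had -0.15 ± 0.18. The inhibitory scavenger-type receptors *CD5* and *CD6* had 0.07 ± 0.05 and -0.10 ± 0.07 and were not called.

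The coreceptors diverged. *CD4*, the class II coreceptor, was higher on D105 in 17 heifers and rose by 0.21 ± 0.08 (paired edgeR quasi-likelihood FDR = 0.0365). *CD8B*, a class I coreceptor chain, was lower in 18 heifers and fell by 0.20 ± 0.07 (FDR = 0.0279 by the same test). *CD8A* was lower in 16 heifers, with -0.12 ± 0.07 and an FDR of 0.195 by that test. Within a library the ratio of *CD8A* to *CD4* was lower on D105 in 21 of 23 heifers. Its median change was -0.34 on the log2 scale. The ratio was chosen after the values had been seen, restates the changes of the same genes and is given without a test. The *CD4* call was lost with upper-quartile scaling (FDR = 0.0577) and the *CD8B* call without heifers 604 and 664 (FDR = 0.0697), both by edgeR's quasi-likelihood test.

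Other ratios within a library were likewise chosen after the values had been seen and are given without a test. They restate the changes of the same genes in the same libraries and are no separate evidence. *LEF1* over *CD3E* was higher on D105 in 22 of 23 heifers, with a median change of 0.50. *IL2RB* over *LEF1* was lower in 23 of 23, with a median change of -0.89 and a range of -1.85 to -0.36. *CCR7* over *CD3E* was higher in 18 heifers and *CD28* over *CD3E* in 17, whereas *IL2RB* over *CD3E* was lower in 20. The last count was 6 of 6 in IVP-Normal, 9 of 9 in IVP-LOS and 5 of 8 in AI heifers.

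Of the 5 kinases 1 was called between the days. *LCK* (0.03 ± 0.06), *FYN* (0.05 ± 0.06), *ZAP70* (0.01 ± 0.04) and the protein kinase C theta gene *PRKCQ* (-0.02 ± 0.05) were not called in the paired fit. *TXK*, a Tec-family kinase of T cells, rose by 0.21 ± 0.06 and was higher in 16 heifers. *LCP2* was called among the 10 adaptors and regulators tested, with a paired rise of 0.20 ± 0.05 (edgeR quasi-likelihood FDR = 0.0018). It ranged from 328 to 389 CPM (median 350.4) on D55 and 356 to 474 CPM (median 445) on D105 in AI heifers and was higher in 8 of 8. The uncalled members of this class lay between -0.08 for *GRAP2*, the adaptor that links LCP2 to LAT, and 0.12 for *RASGRP1*, the activator of RAS. Between these were *LAT* (0.08), the negative regulators *UBASH3A* (0.07) and *SIT1* (0.06), *SKAP1* (0.06), *THEMIS* (0.05), *RHOH* (0.03) and *TRAT1* (-0.04). *LCP2* is also made by myeloid cells and platelets.

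Within the groups, 5 members rose and 0 fell in AI heifers, where 7.21% of all genes rose and 2.73% fell. These were *LEF1*, *LCP2*, *CCR7*, *CD28* and *RASGRP1*, and no member had a negative change at an unadjusted p under 0.05; DESeq2 and edgeR's likelihood ratio test also found none that fell. *LCP2* rose by 0.28 ± 0.07 (edgeR quasi-likelihood FDR = 0.0112) and *CCR7* by 0.66 ± 0.16 (FDR = 0.0139). *RASGRP1* stood at the threshold with 0.22 ± 0.07 (FDR = 0.0499, and 0.0558 to 0.110 with edgeR's likelihood ratio test, no filter or upper-quartile scaling). In IVP-Normal heifers *IL2RB* fell and no member rose, where 0.184% of all genes fell and 2.27% rose. At an unadjusted p under 0.05, 2 members had a positive and 1 a negative change, beside 13.3% of all genes in either direction. DESeq2 and edgeR's likelihood ratio test also called *IL2RB* lower and no member higher. In IVP-LOS heifers no member was called by edgeR's quasi-likelihood test, where 0.0528% of all genes fell and 0.198% rose. There 5 members had an unadjusted p under 0.05, beside 12.6% of all genes. DESeq2 and the edgeR likelihood ratio test each called 1 member higher, where they called 258 and 198 of 15163 genes higher. With heifer as a block the counts were 7 higher in AI, 3 higher (*LEF1*, *CD28* and *ICOS*) and 1 lower in IVP-Normal, and 1 higher (*LEF1*) in IVP-LOS.

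The change between days was compared directly between the groups, and 0% of all genes and 0 of 34 members were called in each of the 3 interaction tests by edgeR's quasi-likelihood test. DESeq2 and the edgeR likelihood ratio test called 0 members. At an unadjusted p under 0.05 there was 0 for IVP-Normal against AI, 1 for IVP-LOS against AI and 0 for IVP-LOS against IVP-Normal. The shares of all genes at that p were 3.39%, 4.96% and 0.828%. The single member was *SIT1*, an inhibitory adaptor, with an interaction of 0.46 ± 0.19 on the log2 scale (edgeR quasi-likelihood FDR = 0.909). These fits were unpaired. With heifer as a block, 2 members, both negative, had an unadjusted p under 0.05 for IVP-Normal against AI, beside 6.23% of all genes. None was called. The day change of *IL2RB* was -0.17 in AI, -0.53 in IVP-Normal and -0.42 in IVP-LOS heifers, and its difference of IVP-Normal against AI was -0.34 ± 0.18. A call in one group and not in another is thus not shown to differ. Between the days the AI and IVP-LOS libraries pass from the set New to BACKUP, and the IVP-Normal libraries do not. The set therefore cannot be told apart from either interaction with IVP-Normal.

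Markers of other leukocytes moved between the days as well. In the paired fit all 8 neutrophil genes tested rose (median log2 fold change 0.93), 5 of 7 B cell genes fell (median -0.20), and the 2 pan-leukocyte genes were not called. Over all genes in that fit, 14.6% rose and 17.1% fell. The neutrophil genes summed to 610.1 to 1493 CPM (median 1017) on D55 and 1695 to 4809.8 CPM (median 2468) on D105 in AI heifers, which did not overlap. In IVP-Normal heifers they summed to 384 to 1062 CPM (median 827) and 1024 to 4765 CPM (median 1744). In IVP-LOS heifers the sum was 467 to 1487 CPM (median 1034) on D55 and 317 to 12389 CPM (median 1114) on D105. The summed B cell genes had D55 and D105 medians of 2937 and 2412 CPM in AI, 3809.7 and 3139 in IVP-Normal and 3025 and 2976 in IVP-LOS. Their part in the change of the members was not tested.

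Other genes of the T cell receptor pathway moved in both directions. Of 64 genes listed beyond the members, 59 were tested, and 15 rose and 5 fell in the paired fit. Over all genes in that fit, 14.6% rose and 17.1% fell. *CTLA4*, the inhibitory counterpart of CD28, rose by 0.88 ± 0.10, and *FYB1*, an adaptor that binds LCP2, rose by 0.76 ± 0.07. *PTPRCAP*, which binds the phosphatase CD45, fell by 0.22 ± 0.06, and the calcineurin subunit gene *PPP3CB* fell by 0.16 ± 0.03. The median over the 59 was 0.005 against -0.02 over all genes. In AI heifers alone 7 rose and 1 fell, beside 7.21% and 2.73% of all genes.

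The members were also summarised as a score, the mean of log2(CPM + 1) over the 35 genes. The score was 6.64 ± 0.18 on D55 and 6.76 ± 0.17 on D105 in AI heifers (SD, n = 8). It was 6.43 ± 0.31 and 6.51 ± 0.22 in IVP-Normal heifers (n = 6) and 6.67 ± 0.22 and 6.73 ± 0.33 in IVP-LOS heifers (n = 9). The spread between heifers therefore exceeded the difference between days in every group. The score was higher on D105 in 15 of 23 heifers, namely 5 of 8 AI, 4 of 6 IVP-Normal and 6 of 9 IVP-LOS, with a median change of 0.08.

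**Figure D3:**
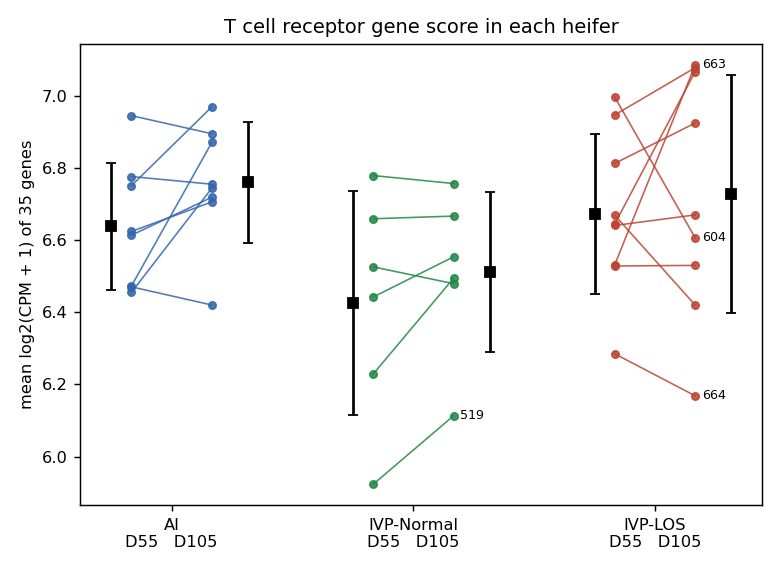
Mean log2(CPM + 1) of the 35 genes on D55 and D105, with 1 line per heifer and the group mean ± SD as black squares. The score rose most in IVP-LOS heifer 663 (0.55) and fell most in IVP-LOS heifer 604 (-0.39), and heifer 519 was the lowest of the IVP-Normal group on both days.

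Single heifers moved far more than the groups. In heifer 663 the score rose by 0.55 and 33 members were higher on D105, and in heifer 602 it rose by 0.42 with 32 higher. In heifer 604 it changed by -0.39 with 28 members lower, and in heifer 637 by -0.25 with 31 lower. These 4 are IVP-LOS heifers, but shifts of this size were not confined to that group. In AI heifer 546 the score rose by 0.40 with 31 members higher. It rose by 0.29 in AI heifer 606 and by 0.27 in IVP-Normal heifer 633. The AI changes ran from -0.05 to 0.40. The neutrophil genes on D105 summed to 2132 CPM in heifer 663, 1259 in 602, 317 in 604 and 12389 in 637, and the part of these cells in the scores was not tested. *LEF1* rose even in heifers 604 and 637. Among the 34 members tested, *RHOH* varied least between heifers, with a log2 SD of 0.14 on D55 and 0.14 on D105, followed by *PRKCQ* (0.20 and 0.21). *GRAP2* varied most (0.60 and 0.61), ahead of *IL7R* (0.54 and 0.46) and *CD8B* (0.46 and 0.45).

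The next question was whether the members differed between the groups of pregnancies on a given day. No member was called in any of the 6 comparisons by edgeR's quasi-likelihood test, by its likelihood ratio test or by DESeq2. The quasi-likelihood test called 0% of all genes in each, and the other tests called some genes, none of them members. The signs of the estimates were nonetheless uneven, but the members come from the same heifers and often moved together, so they are not independent observations. Against AI, the IVP-Normal heifers had negative log2 fold changes for 27 of 34 members on D55 (median -0.24) and for 30 of 34 on D105 (median -0.27), while 50.3% and 48.5% of all genes were negative. At an unadjusted p under 0.05 there were 7 members on D55 and 15 on D105, all negative, beside 9.92% and 9.57% of all genes in either direction. Without heifer 519, whose score was the lowest on both days, these counts were 5 and 9 and the medians -0.14 and -0.20. The shares of all genes were then 5.50% and 5.88%. The D55 libraries are all of the set New, whereas on D105 the set cannot be told apart from this contrast.

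*THEMIS*, a regulator of thymocyte selection, had the most negative estimate on both days, with -0.58 ± 0.17 on D55 and -0.60 ± 0.16 on D105 (edgeR quasi-likelihood FDR = 0.4932 and 0.514). On D105 it ranged from 17.2 to 33.5 CPM (median 26.8) in AI, 14.9 to 21.2 CPM (median 15.8) in IVP-Normal and 14.3 to 32.2 CPM (median 25.8) in IVP-LOS heifers. *CD8A* had -0.53 ± 0.16 and -0.49 ± 0.15, and its D105 values were 65.4 to 113.04 CPM (median 81.0) in AI and 40.7 to 75.7 CPM (median 61.6) in IVP-Normal heifers. *CD4* had -0.43 ± 0.13 and *CD3D* -0.43 ± 0.14 on D105. All of these ranges overlapped. *CD5*, *RHOH* and *CCR7* had positive estimates on both days, from 0.11 to 0.19 on D55 and from 0.07 to 0.18 on D105.

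The IVP-LOS heifers had positive estimates against IVP-Normal for 31 of 34 members on D55 (median 0.27) and 32 of 34 on D105 (median 0.28), while 50.9% and 59.5% of all genes were positive. Of the members 5 and 2 passed an unadjusted p of 0.05, beside 5.19% and 3.24% of all genes. Without heifer 519 the medians were 0.16 and 0.17, and 1 member passed on each day, beside 3.43% and 3.37% of all genes. On D105 without heifers 604 and 664 the count was 13, beside 8.30% of all genes. Both comparisons share the IVP-Normal libraries with those against AI, and the members are again not independent. On D105 the IVP-LOS libraries are all of the set BACKUP and the IVP-Normal ones all New. Set and group therefore cannot be told apart in that comparison either. IVP-LOS against AI had medians of 0.04 on D55 and -0.01 on D105, with 2 members and 1 member at an unadjusted p under 0.05. The shares of all genes at that p were 7.74% and 5.76%. On D105 the median was 0.11, with 29 of 34 estimates positive, without heifers 604 and 664, and 0.03 without heifer 637. *IL2RB* had 0.29 ± 0.13 on D55 and *GRAP2* 0.43 ± 0.29 on D105 in that comparison.

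**Figure D4:**
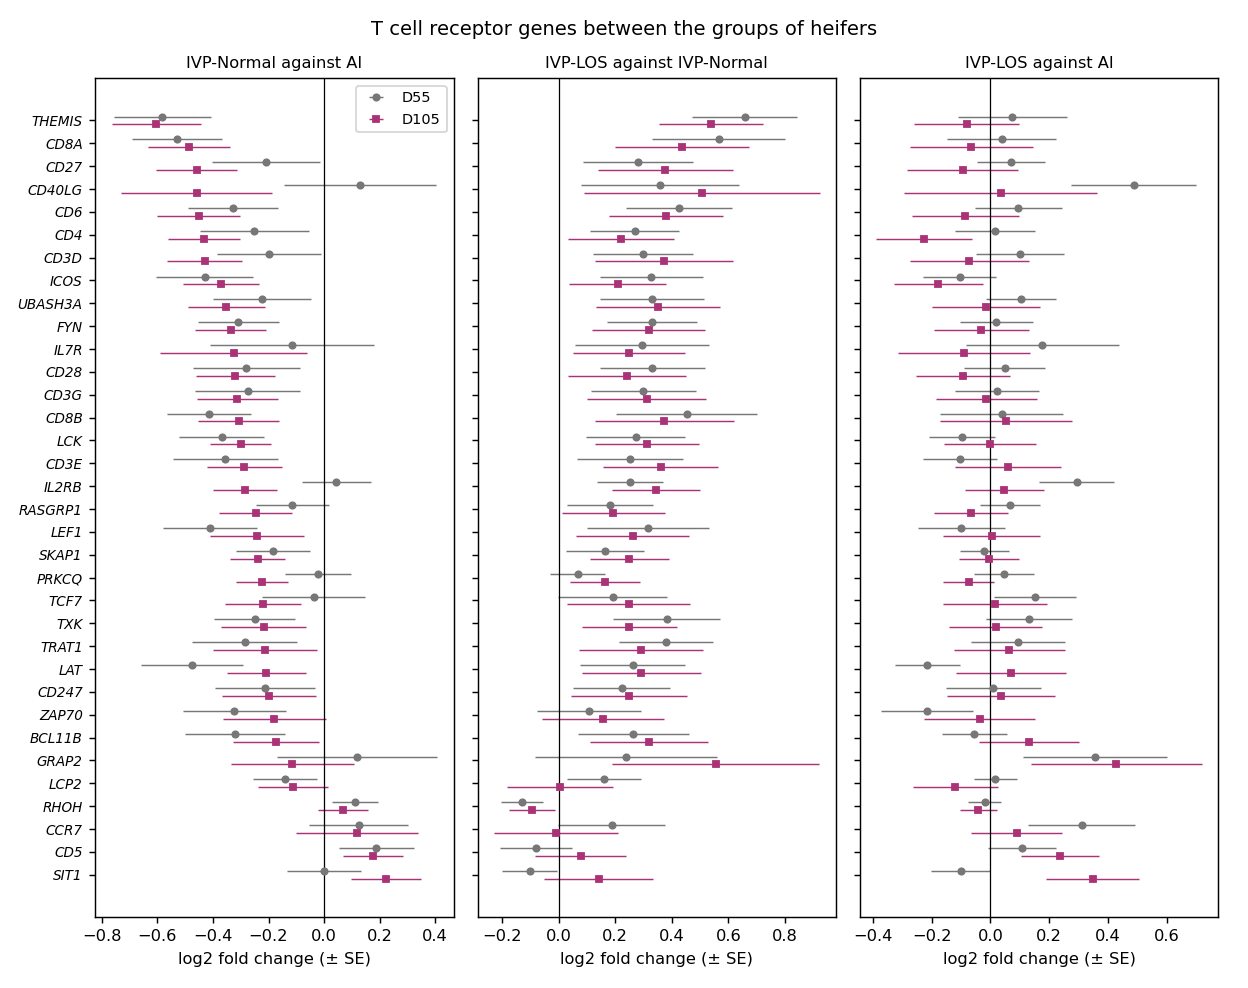
Log2 fold change (± SE) of each member between groups on D55 (circles) and D105 (squares), ordered by the D105 estimate of IVP-Normal against AI. Most estimates lie left of 0 for IVP-Normal against AI and right of 0 for IVP-LOS against IVP-Normal, and none was called.

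Other cell markers differed in sign beside these estimates. On D55 the summed B cell genes were 3428 to 4951 CPM (median 3809.7) in IVP-Normal and 2446 to 3954 CPM (median 2937) in AI heifers, and on D105 2756 to 4621 CPM (median 3139) and 1332 to 3651 CPM (median 2412). Of the 7 B cell genes, 6 had a positive estimate for IVP-Normal against AI on D55 and 7 on D105 (medians 0.42 and 0.47). All 5 NK and cytotoxic genes were negative on both days (medians -0.44 and -0.34), as were the 6 monocyte genes tested (medians -0.55 and -0.79). None of these marker genes was called, and their part in the estimates of the members was not tested.

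Heifers 604 and 664 were compared with the other 21, as the authors did. The authors focused on this pair because of the size of the fetuses and because it separated in clustering of these transcriptomes. The pair was thus chosen partly on these data, and the FDRs below take no account of that choice. On D55 no member was called by edgeR's quasi-likelihood test, 0 had an unadjusted p under 0.05, and DESeq2 and the likelihood ratio test called 0, where 0.0179% of all genes were called. The pair did not move together on that day: heifer 604 lay at or above the median of the others for every member and heifer 664 below it for 29 of 35. On D105, 4 members were lower and 1 was higher in the pair, where 9.48% of all genes were lower and 11.6% higher. The members had a median log2 fold change of -0.44, against -0.02 over all genes, and 31 of 34 were negative. That median was -0.19 without heifer 664, with 25 of 34 negative, and -0.70 without heifer 604. Over all genes on D105, 15.02% lay below the range of the other 21 in heifer 664 and 12.3% in heifer 604, and 7.97% lay above it in both.

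**Figure D5:**
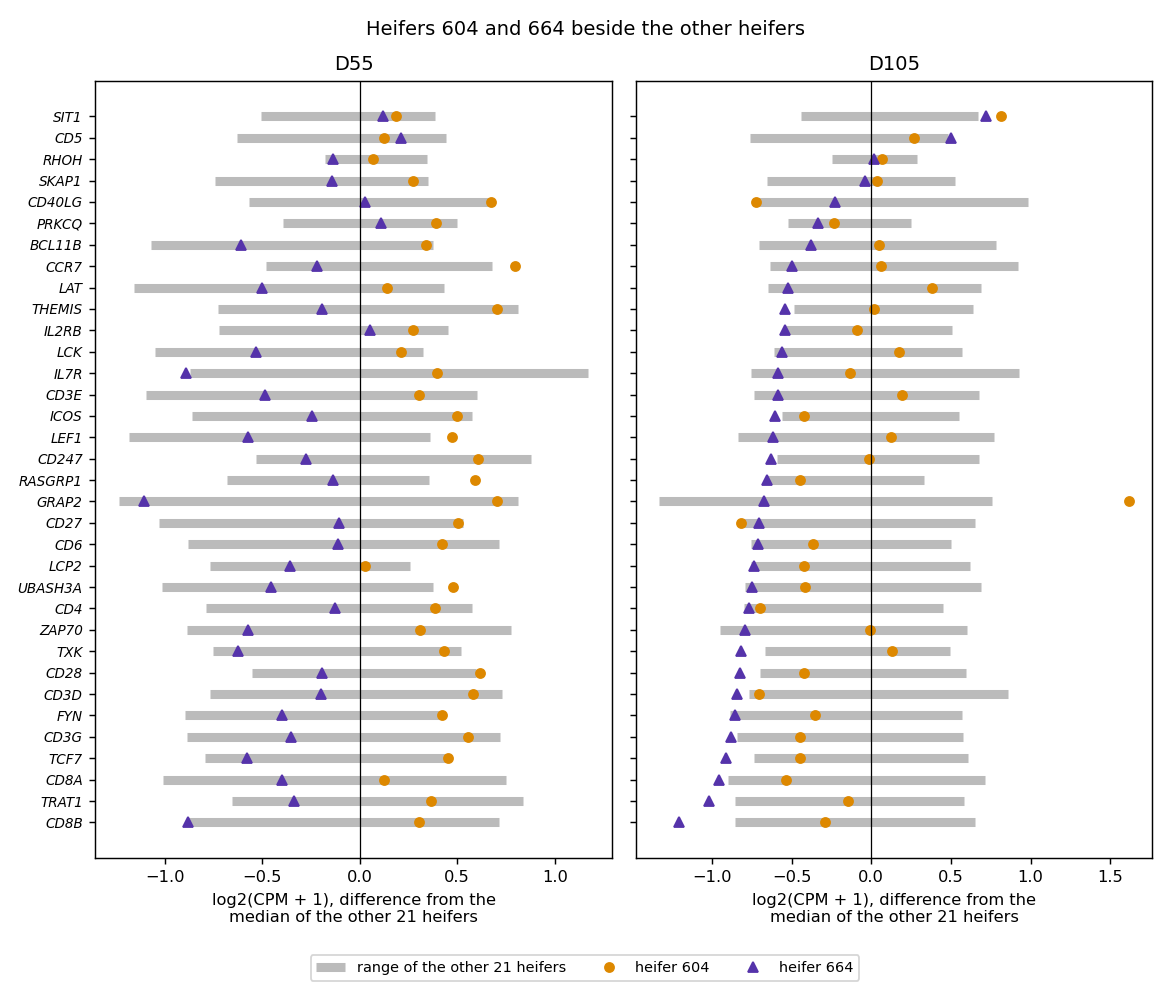
Level of each member in heifers 604 (circles) and 664 (triangles) as the difference in log2(CPM + 1) from the median of the other 21 heifers, whose range is the grey bar, on D55 and D105. On D105 heifer 664 lies below the bar for 13 members and heifer 604 for 0, and *SIT1* lies above the bar in both.

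*SIT1* was 205 CPM in heifer 604 and 192 CPM in heifer 664 on D105, and 85.3 to 186 CPM (median 116.1) in the others. Both heifers lay above the range, and the log2 fold change was 0.67 ± 0.19 (edgeR quasi-likelihood FDR = 0.0165). The call rests on these 2 libraries, and leaving out either heifer leaves 1 library in the pair's group, from which no call is given. *TCF7* was 329 and 239 CPM, and 269 to 686 CPM (median 449.7) in the others. Here heifer 664 lay below the range and heifer 604 inside it (-0.75 ± 0.24, FDR = 0.0329 by the same edgeR quasi-likelihood test). *CD3D* was 85.8 and 77.7 CPM, against 81.9 to 255 CPM (median 140.2), with -0.89 ± 0.29 and an edgeR quasi-likelihood FDR of 0.0335. *CD27* and *LCP2* completed the calls with -0.83 ± 0.29 and -0.60 ± 0.20 (edgeR quasi-likelihood FDR = 0.043 and 0.0405). On D55 *CD3D* had been 216 CPM in heifer 604 and 125.5 CPM in heifer 664.

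The other CD3 chains were not called by the quasi-likelihood test, with estimates of -0.68 ± 0.25 for *CD3G*, -0.42 ± 0.27 for *CD247* and -0.25 ± 0.27 for *CD3E*. *CD3E* was 549.9 CPM in heifer 604 and 320.4 CPM in heifer 664 on D105, and 289 to 769 CPM (median 482) in the others, so both lay inside the range. *CD3D* over *CD3E* was -2.67 on the log2 scale in heifer 604 and -2.03 in heifer 664, against -2.29 to -1.48 in the others, and on D55 it had been -1.41 and -1.39. *GRAP2* was 163 CPM in heifer 604, above the 20.2 to 89.3 CPM (median 52.3) of the others, and 32.5 CPM in heifer 664. The number of members called lower was 9 with DESeq2, 8 with edgeR's likelihood ratio test and 14 among the BACKUP libraries alone. Over all genes these 3 settings called 2018 of 16841, 1805 of 16841 and 2194 of 16634 lower. Leaving out either heifer leaves 1 library in the pair's group, so no count of calls is given for those fits.

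Other leukocyte markers stood apart in the same libraries on D105. The neutrophil genes summed to 317 CPM in heifer 604 and 393 CPM in heifer 664, below the 677 to 12389 CPM (median 2043) of the others. The monocyte genes summed to 98.5 and 86.3 CPM, against 194 to 1996 CPM (median 579.5). The B cell genes summed to 4088 and 5320.1 CPM, against 1332 to 4621 CPM (median 2756). Platelet genes summed to 5906 CPM in heifer 604 and 797 CPM in heifer 664, against 254 to 1499.9 CPM (median 667). Of the 59 other pathway genes 7 were lower in the pair, among them *PIK3CD* (-0.95), and 4 were higher, among them *PTPRCAP* (0.69). Over all genes 9.48% were lower and 11.6% higher. The part of these markers and of the share of reads on no gene in the members' values was not tested.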

How the data were processed

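The authors isolated RNA from buffy-coat white cells after lysis of red cells, sequenced paired-end libraries, aligned the reads to the bovine genome ARS-UCD1.2 with HISAT2 2.1.0 and counted them per NCBI gene with HTSeq. The deposited values are raw read counts, and the strand setting is not given in the sources used here; *LCK*, *FYN*, *LCP2*, *PRKCQ*, *RASGRP1*, *LEF1*, *SKAP1* and *MAL* (8 members) overlap another gene in the RefSeq annotation of ARS-UCD2.0, so their counts are uncertain to that extent. A second deposited count table, on Ensembl identifiers without symbols, was not used. The 5 summary lines of the table, which held 36.5% to 48.6% of the reads of a library, were left out of library sizes.

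In R 4.3.3, counts were scaled by TMM and tested with edgeR 4.0.16 (glmQLFit and glmQLFTest) after filterByExpr with a minimum count of 10, on the compared groups. Adjustment was by Benjamini-Hochberg over all genes, and an SE is the absolute log2 fold change divided by the square root of F. The scripts were tested on simulated counts. Levels are TMM-scaled CPM, with a pseudocount of 1 for scores and ratios. Levels were not compared between genes. Day fits within groups and the interaction fits were unpaired unless heifer is named as a block. The labels give each heifer's number on both days, so the numbers pair the libraries: deviations from the group mean correlated at a mean r of 0.54 within a heifer (lowest 0.21) and -0.02 between heifers over 9601 genes, and 20 of 23 D55 libraries were closest to their own D105 library. The paired fit of 23 heifers, the fits without heifer 519 and the ratios were added after the values were seen.

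Members and lists were chosen with earlier results of these data known. Values are given for the CD3 chains and for the 3 called members with the smallest FDR in each day comparison and for heifers 604 and 664 on D105. The remaining members are given by their estimates. Results of some other pathway genes are not reported here. Counting error alone is small at this depth, and the p-values of the unpaired fits measure the spread between heifers. Those of the paired fit and of fits with heifer as a block measure the spread of the day change among heifers. Alternatives were DESeq2 1.42.0, edgeR's likelihood ratio test, upper-quartile scaling, no filter, heifer as a block, the BACKUP libraries alone, and fits leaving out heifers.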

Additional observations from a re-analysis of the deposited data

Results flagged for a closer look

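Within each group and day, the highest or lowest heifer was compared with its neighbour by Dixon's ratio for the score and for each of the 33 members with a mean of 10 CPM or more. Of 204 groups of values 11 exceeded the 95% critical value, which is about the rate of 1 in 20 that chance gives. The groups are not independent, since each heifer enters many of them. Heifer 590 was the highest AI heifer on D55 for *CD3D* (239.9 CPM), *TRAT1* (153.1 CPM), *IL7R* (696.1 CPM) and *RHOH* (150.5 CPM). In IVP-LOS heifers on D105, heifer 637 was lowest for *CD5* (110.4 CPM) and highest for *LCP2* (644.3 CPM), heifer 604 was highest for *GRAP2* (162.6 CPM), and heifer 512 was highest for *IL7R* (763.6 CPM). Heifer 533 was lowest for *CD4* among AI heifers on D105 (152.0 CPM). Heifer 519 was lowest for *CD3E* among IVP-Normal heifers on D105 (288.9 CPM), and heifer 628 was highest for *IL7R* among them on D55 (520.8 CPM). The score itself was flagged in none of the 6 groups.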

How the results depend on the processing

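With heifer as a replicate block, 3 members rose in IVP-Normal (1 without heifer 519 and no block) and 1 in IVP-LOS, where DESeq2 and edgeR's likelihood ratio test also called 1; the block changed the number called in no other comparison by over 1.5 times. In the paired fit of 23 heifers, 1 member fell with no replicate block and 1 without heifers 604 and 664, instead of 2. For heifers 604 and 664 on D105 the members called lower numbered 9 with DESeq2, 8 with the likelihood ratio test, 2 with no filter, 14 in the BACKUP libraries alone, and 0 to 0 when 1 of the pair was left out; the members called higher were then 0 to 1, the 1 being *GRAP2* without heifer 664. *CD3E* changed sign between days in AI with upper-quartile scaling (-0.028) and no filter (-0.00060), and in the pair on D105 (-0.69 to 0.081 when 1 heifer was left out). In IVP-LOS between days, *CD3D* (0.064), *CD3G* (0.089) and *CD247* (0.087) turned positive without heifers 604 and 664, *CD247* also without heifer 637 (0.016), and *CD3G* did so in the paired fit without heifers 604 and 664 (0.0025); none was called. As a mean z-score in place of mean log2 CPM, which is another unit, the AI day change was 0.33 and IVP-Normal minus AI -0.56 on D55 and -0.69 on D105. The causes were not tested. Of the other values, 141 comparison counts and scores and 232 estimates of named members kept their side of the threshold, 21 such estimates lost it and 3 newly passed it. The Ensembl table was not run, because its identifiers are not paired with symbols. Depth limited *CD40LG* and *MAL*.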
